A study of Mus musculus with 8 samples.

Results

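Kupffer cell and macrophage marker genes were followed in liver RNA from 8 mice on a high fat diet. They comprise 35 of 45706 counted gene identifiers, picked by name from known markers of resident Kupffer cells, recruited monocytes and lipid-associated macrophages, with no measured value in the rule. Earlier results of these data were nevertheless known when these genes and the lists read beside them were chosen. Names were matched to Ensembl identifiers through the GENCODE M21 annotation of GRCm38. All 35 were found, and 35 of 35 were abundant enough to be tested, as were 15491 genes in all.

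Kupffer cells are the macrophages that line the liver sinusoids, where they take up particles, dying cells and bacteria from portal blood, and they depend on CSF1 signalling and on the transcription factor PU.1. In fatty liver, monocytes that enter through CCR2 and its ligand CCL2 can replace resident cells. Macrophages that gather around lipid-laden cells turn on a programme marked by TREM2, GPNMB, osteopontin and CD9.

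The mice were males of the C57BL/6J background (the labels give the strain as C56B6/J). At 6 weeks of age, 4 received AAV-*Srsf10-kd* by tail vein and 4 received AAV-*Ctrl*, which carries a control mirE/shRNA in the same AAV2/8 vector. In this vector the chicken β-actin promoter, which is active in many cell types, drives GFP and the mirE/shRNA, so the controls carry virus and GFP as well. From 4 weeks after injection all 8 mice received a diet with 60% of calories from fat, for 12 weeks. Groups are named by their labels alone, because the targeted RNA, *Srsf10*, averaged 36.4 ± 3.24 CPM (SD, n = 4) in *Srsf10-kd* and 32.9 ± 1.99 CPM (SD, n = 4) in *Ctrl*, which is no decrease. The study itself reported less SRSF10 in *Srsf10-kd* livers, as protein by western blot and as RNA by qPCR. It does not say whether those livers include the 8 sequenced here. *Ppara*, which encodes PPARα, averaged 83.3 ± 4.45 CPM (SD, n = 4) in *Srsf10-kd* and 197 ± 30.3 CPM (SD, n = 4) in *Ctrl*. All 4 *Srsf10-kd* livers were below all 4 controls, and the log2 fold change came to -1.24 (adjusted p = 0.0166 from edgeR). Lower *Ppara* after SRSF10 inactivation was also reported by the study. The labelled groups thus differed in *Ppara*, although *Srsf10* RNA showed no decrease. CPM is a read count scaled by library size after edgeR's TMM normalization. The labels give the livers separate titles and say nothing more of their origin, so p-values measure the spread between these livers.

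Promoter sequences were taken from RefSeq (GRCm38.p6), whose table held 28 of the 35 genes. They are shown for 4 genes as the 250 bases before the RefSeq start, read 5′ to 3′ on the strand of the gene. *Spp1* and *Mrc1* are shown because their levels did not overlap between the groups, *Cd5l* because it had the highest level per kilobase, and *C1qb* because it belongs to a set of neighbours that varied together. Capitals mark AGGAAG, the core that PU.1 and other ETS factors bind, on either strand (CTTCCT when read on the other one).

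*Spp1*, chr5:104434861-104435110, plus strand: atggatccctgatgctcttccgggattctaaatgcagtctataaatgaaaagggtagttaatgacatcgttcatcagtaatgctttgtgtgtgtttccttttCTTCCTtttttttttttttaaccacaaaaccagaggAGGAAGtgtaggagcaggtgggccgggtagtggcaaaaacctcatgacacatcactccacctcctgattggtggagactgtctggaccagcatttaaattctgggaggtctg

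*Mrc1*, chr2:14229164-14229413, plus strand: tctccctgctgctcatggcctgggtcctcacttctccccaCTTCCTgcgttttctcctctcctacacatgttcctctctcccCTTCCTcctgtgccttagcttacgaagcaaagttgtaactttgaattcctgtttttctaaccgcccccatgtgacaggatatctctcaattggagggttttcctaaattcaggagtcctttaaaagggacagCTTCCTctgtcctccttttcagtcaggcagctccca

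*Cd5l*, chr3:87357631-87357880, plus strand: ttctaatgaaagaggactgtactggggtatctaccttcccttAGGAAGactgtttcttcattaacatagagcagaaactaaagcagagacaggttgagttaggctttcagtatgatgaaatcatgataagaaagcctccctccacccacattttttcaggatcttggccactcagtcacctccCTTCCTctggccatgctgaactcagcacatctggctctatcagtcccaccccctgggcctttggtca

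*C1qb*, chr4:136886201-136886450, minus strand: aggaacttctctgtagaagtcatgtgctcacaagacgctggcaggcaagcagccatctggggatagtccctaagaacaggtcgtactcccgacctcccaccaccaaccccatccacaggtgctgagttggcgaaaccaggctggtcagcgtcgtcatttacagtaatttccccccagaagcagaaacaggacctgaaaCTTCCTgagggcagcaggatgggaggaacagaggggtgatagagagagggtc

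Over windows of 300 bases, from 250 before to 50 after the start, AGGAAG occurred on either strand in 16 of 28 member promoters (57.1%) and in 9498 of all 27025 (35.1%). The longer PU.1 site GAGGAAGT, which contains that core, occurred in 5 of 28 (17.9%) and in 887 of 27025 (3.28%). Its 5 promoters were those of *Ctss*, *C1qc*, *Spp1*, *Mmp12* and *Ly6c2*. These matches describe letters in a window and were not related to a level or a difference.

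Libraries held 50456404 to 59697241 counted reads, so that 1 read equals 0.0164 to 0.0199 CPM. The 35 genes spanned 8 to 5645 counts in a liver. Mean levels ran from 0.245 CPM (*Gpnmb*) to 78.3 CPM (*Cd5l*), with 17 genes above 10 CPM and 8 below 1 CPM. Within groups, the SD of log2 CPM had a median of 0.35 over the 35 genes and 0.26 over all genes tested, so the macrophage genes varied more between livers of the same group than the typical gene. Of the 35 genes, 24 were highest in a liver numbered 3, counting both groups. The same share over all tested genes is not given here, so this is not read as particular to macrophage genes. Whole liver was sequenced, and fewer cells of a type and less RNA per cell cannot be told apart.

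**Figure D1:**
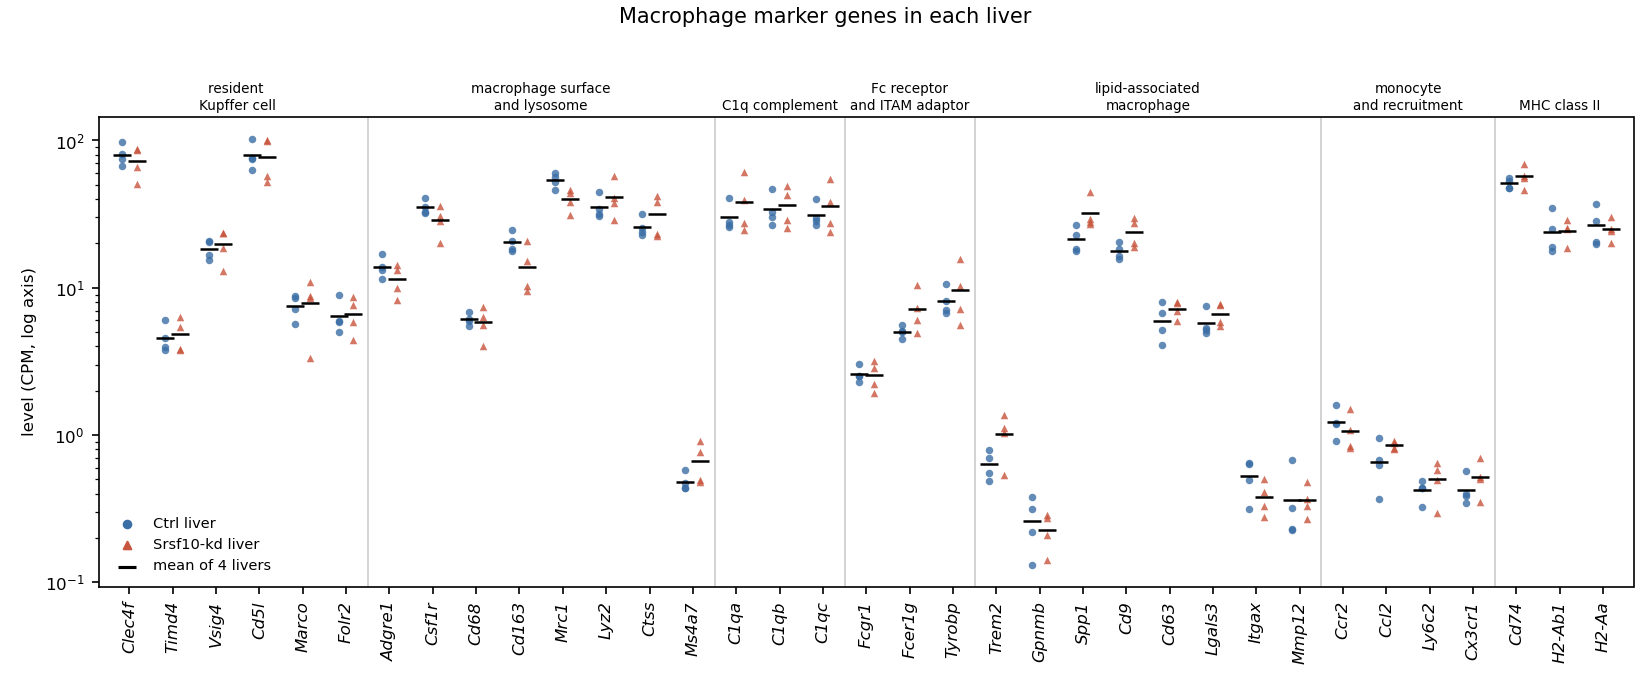
Level of each macrophage gene in each liver (CPM, log axis), grouped by role, with circles for *Ctrl* livers, triangles for *Srsf10-kd* livers and a bar at the mean of 4 livers. Mean levels run from 0.245 CPM for *Gpnmb* to 78.3 CPM for *Cd5l*, and the groups overlap in every gene except *Spp1* and *Mrc1*.

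Between livers labelled *Srsf10-kd* and *Ctrl* livers, edgeR's quasi-likelihood test put 0 of 35 macrophage genes past an adjusted p of 0.05 and 0.071% of all tested genes past it. Adjusted p-values over the 35 genes ran from 0.151 to 0.992. Without adjustment, 6 had a p under 0.05 in that test. Higher in *Srsf10-kd* were *Spp1*, *Cd9*, *Fcer1g* and *Trem2*, which is 11.4% of the members beside 11.2% of all tested genes. Lower were *Mrc1* and *Cd163*, which is 5.71% beside 10.6%. The first share was close to that of the whole transcriptome and the second was below it. DESeq2 called 0 members at adjusted p 0.05 and 5.21% of all genes. Limma-voom with sample quality weights called *Cd163* and *Cd9*, 2 of 35, beside 11.7% of all genes. With single livers left out in turn, *Spp1* and *Mrc1* stayed under an unadjusted p of 0.05 in 8 of 8 edgeR fits. *Cd9* did so in 4, *Fcer1g* in 3, and *Trem2* and *Cd163* in 2. Altogether 22 of 35 members (62.9%) had a positive log2 fold change, against 51.3% of all genes, and the median was 0.10 against 0.01.

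**Figure D2:**
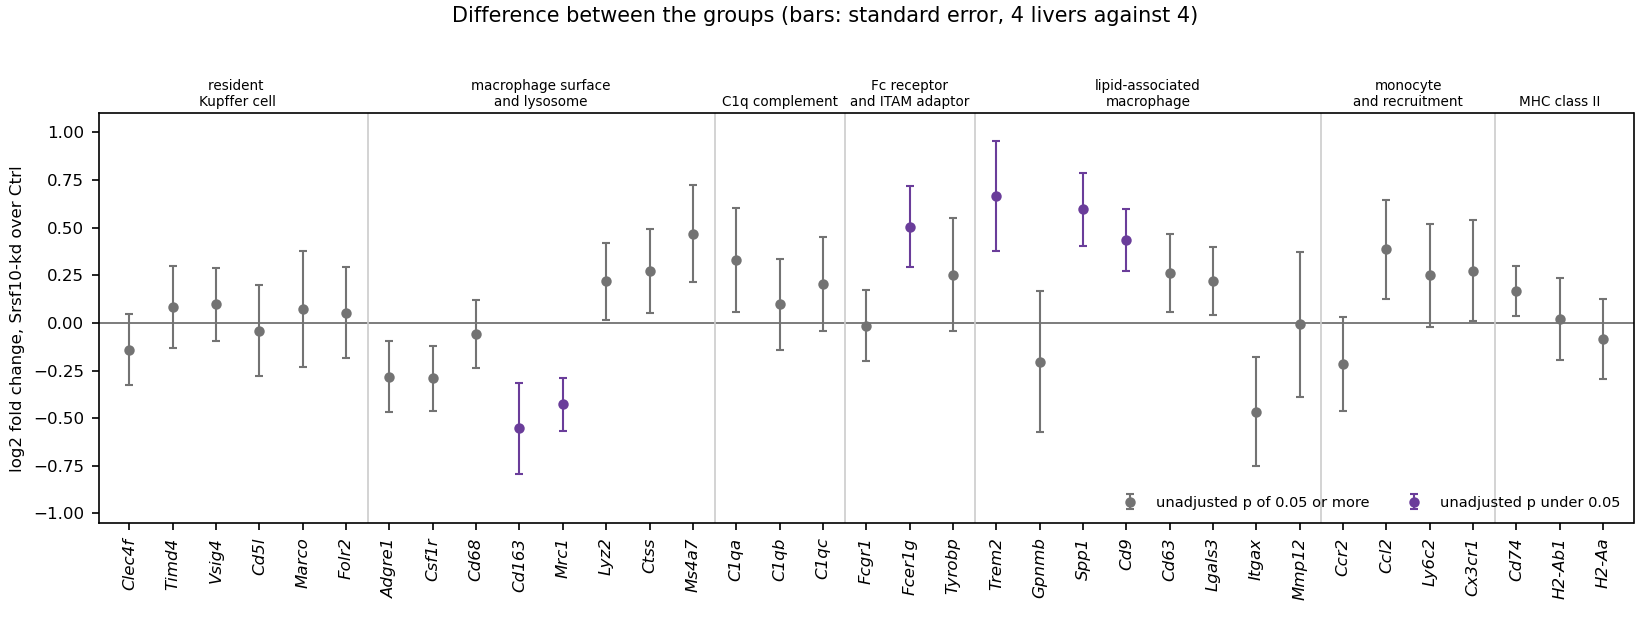
Log2 fold change (*Srsf10-kd* over *Ctrl*) of each macrophage gene from edgeR, with bars for the standard error, 4 livers against 4. The values run from -0.55 for *Cd163* to 0.67 for *Trem2*, the 6 genes with an unadjusted p under 0.05 are in purple, and 0 of 35 passed an adjusted p of 0.05.

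The levels of the 6 resident Kupffer cell genes overlapped between the groups, and 0 of 6 had an unadjusted p under 0.05 in edgeR. *Clec4f*, a C-type lectin that in mice is restricted to Kupffer cells, measured 67.0, 75.1, 97.1 and 80.6 CPM in *Ctrl* 1 to 4 and 87.7, 65.8, 86.0 and 50.7 CPM in *Srsf10-kd* 1 to 4. Both the low and the high end of *Clec4f* therefore included livers labelled *Srsf10-kd*, and its log2 fold change came to -0.14 (standard error, SE, 0.19, adjusted p = 0.659 from edgeR). *Cd5l*, a secreted scavenger protein that macrophages make under control of LXR, measured 63.2, 76.5, 102.9 and 74.9 CPM in *Ctrl* and 98.4, 57.0, 100.9 and 52.4 CPM in *Srsf10-kd*. The *Srsf10-kd* livers fell into a high pair (1 and 3) and a low pair (2 and 4) on either side of most controls, with a log2 fold change of -0.04 (SE 0.24).

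*Timd4*, the phosphatidylserine receptor of long-lived resident cells, averaged 4.58 ± 1.02 CPM (SD, n = 4) in *Ctrl* and 4.86 ± 1.25 CPM (SD, n = 4) in *Srsf10-kd*. *Vsig4*, the complement receptor that captures bacteria from blood, averaged 18.4 ± 2.67 and 19.7 ± 5.01 CPM. Both had the same high livers as *Cd5l*, namely *Ctrl* 3 and *Srsf10-kd* 1 and 3 among the 3 highest. *Marco*, a scavenger receptor, had the widest spread of all 35 genes, 3.29 times between its highest liver (*Srsf10-kd* 1, 10.9 CPM) and its lowest (*Srsf10-kd* 2, 3.33 CPM), both with the same label. *Folr2*, a folate receptor of resident macrophages, averaged 6.42 ± 1.69 and 6.66 ± 1.89 CPM. Of its annotated stretches of 75 bases, 47.1% also occur in *Gm10602*, which overlaps it on the other strand, so part of its count is uncertain. Over the 6 Kupffer cell genes, 4 had a positive and 2 a negative log2 fold change, and the median was 0.06.

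Genes of the macrophage surface and lysosome included *Mrc1* and *Cd163*, the members that were lower at an unadjusted p under 0.05 in edgeR. *Mrc1*, the mannose receptor CD206, lies on chromosome 2 from 14229392 to 14332057. It measured 46.0, 52.6, 59.8 and 56.2 CPM in *Ctrl* and 45.9, 38.4, 44.0 and 31.2 CPM in *Srsf10-kd*. All 4 *Srsf10-kd* livers were below all 4 controls, although *Srsf10-kd* 1 was below *Ctrl* 1 by less than the spread within either group. Such complete separation in this direction was seen in 7.53% of all tested genes. The log2 fold change came to -0.43 (SE 0.14, unadjusted p = 0.0124, adjusted p = 0.154 from edgeR), and a two-sided exact permutation test gave p = 0.0286, the smallest value that 4 livers against 4 allow. Without both livers numbered 3 it was -0.42 (adjusted p = 0.0997 from edgeR). Liver sinusoidal endothelial cells express *Mrc1* too. Beside it, the 10 endothelial markers summed to 99.9 to 107.5 CPM per kilobase in *Ctrl* and 95.1 to 116.0 in *Srsf10-kd*, 5 of them higher and 5 lower, and their part in the *Mrc1* difference was not tested.

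*Cd163*, the haemoglobin-haptoglobin scavenger receptor, lies on chromosome 6 from 124304656 to 124330527. It measured 17.8, 20.9, 18.5 and 24.5 CPM in *Ctrl* and 15.1, 10.3, 20.8 and 9.44 CPM in *Srsf10-kd*. Its groups overlapped through *Srsf10-kd* 3, which ranked above *Ctrl* 1 and 3. The log2 fold change came to -0.55 (SE 0.24, adjusted p = 0.217 from edgeR). With both livers numbered 3 left out, edgeR gave -0.86 for *Cd163* (adjusted p = 0.0346) and 0.61 for *Cd9* (adjusted p = 0.0437), and these 2 of 35 members passed where 8.62% of all genes did. Beside this, the red cell markers summed to 350 to 457 CPM per kilobase in *Ctrl* and to 351 to 1107 in *Srsf10-kd*, with the top in *Srsf10-kd* 3, and their part in the *Cd163* levels was not tested.

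*Csf1r*, the receptor on which macrophage survival depends, averaged 35.3 ± 3.96 CPM (SD, n = 4) in *Ctrl* and 28.9 ± 6.68 CPM (SD, n = 4) in *Srsf10-kd*. *Adgre1*, which encodes the F4/80 antigen, averaged 13.9 ± 2.33 and 11.4 ± 2.72 CPM. Each had its lowest value in *Srsf10-kd* 4, at 20.04 and 8.32 CPM, and the log2 fold changes were -0.29 (SE 0.17) and -0.28 (SE 0.19). Without that liver they were -0.15 and -0.16. *Csf1r* shares 13.9% of its stretches with *Hmgxb3* on the other strand. *Cd68*, a lysosomal glycoprotein, averaged 6.10 ± 0.545 and 5.85 ± 1.41 CPM. *Lyz2* (lysozyme), *Ctss* (cathepsin S, which trims the invariant chain) and *Ms4a7* had positive log2 fold changes of 0.22, 0.27 and 0.47, and each had its highest value in *Srsf10-kd* 3. Without that liver the values were 0.017, 0.10 and 0.28, and without both livers numbered 3 they were 0.15, 0.21 and 0.38. Within this set of 8 genes, 5 were lower and 3 higher, and the 4 lowest log2 fold changes belonged to the 4 genes with the longest transcripts, *Mrc1*, *Csf1r*, *Cd163* and *Adgre1*.

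The C1q genes, whose products form the recognition unit of the classical complement pathway, lie side by side on chromosome 4. *C1qb* runs from 136880129 to 136886187, *C1qc* from 136889804 to 136893065 and *C1qa* from 136895917 to 136898803, all on the minus strand. *C1qa* measured 26.0, 27.8, 40.6 and 26.6 CPM in *Ctrl* and 39.1, 27.6, 60.6 and 24.9 CPM in *Srsf10-kd*. In all 3 genes *Srsf10-kd* 3 was highest, then *Ctrl* 3, *Srsf10-kd* 1 and *Ctrl* 2, while *Srsf10-kd* 4 was the lowest in each. The group means differed by less than this spread, with log2 fold changes of 0.33 (SE 0.27) for *C1qa*, 0.10 (0.24) for *C1qb* and 0.21 (0.25) for *C1qc*. Without *Srsf10-kd* 3 alone they were 0.016, -0.079 and -0.069, and without both livers numbered 3 they were 0.19, 0.11 and 0.07.

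Among Fc receptor genes and their adaptors, *Fcer1g* had the highest log2 fold change. This gene, on chromosome 1 from 171229572 to 171234365, encodes the common γ chain, which carries the signal of activating Fc receptors. It measured 5.57, 4.51, 5.05 and 4.99 CPM in *Ctrl* and 7.27, 5.997, 10.4 and 4.90 CPM in *Srsf10-kd*. *Srsf10-kd* 4 lay within the controls and *Srsf10-kd* 3 far above them, and the log2 fold change came to 0.51 (SE 0.21, adjusted p = 0.211 from edgeR). Without *Srsf10-kd* 3 it was 0.27 (unadjusted p = 0.109 from edgeR, adjusted p = 0.405), and without both livers numbered 3 it was 0.27 as well (adjusted p = 0.313 from edgeR). *Tyrobp*, the adaptor DAP12 through which TREM2 signals, averaged 8.12 ± 1.73 and 9.67 ± 4.50 CPM, and *Fcgr1*, the high-affinity IgG receptor, averaged 2.58 ± 0.310 and 2.55 ± 0.581 CPM. The log2 fold change of *Tyrobp* was 0.25 (SE 0.30) with all livers, -0.085 without *Srsf10-kd* 3 and 0.065 without both livers numbered 3.

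The lipid-associated macrophage genes differed widely in level, and the most abundant, *Spp1* and *Cd9*, are shared with other cell types. Per kilobase of transcript, *Spp1* and *Cd9* made up 75.4% of the summed mean level of the 8 genes, *Cd63* and *Lgals3* 22.3%, and *Trem2*, *Gpnmb*, *Itgax* and *Mmp12* 2.24%. *Spp1* encodes osteopontin and lies on chromosome 5 from 104435118 to 104441050, and 8.55% of its stretches are shared with the overlapping gene *Gm42793*. It measured 26.6, 22.7, 17.8 and 18.4 CPM in *Ctrl* and 29.5, 28.0, 44.7 and 27.1 CPM in *Srsf10-kd*. All 4 *Srsf10-kd* livers were above all 4 controls, a separation seen in this direction in 6.73% of all tested genes. The log2 fold change came to 0.60 (SE 0.19, unadjusted p = 0.0108, adjusted p = 0.151 from edgeR), with p = 0.0286 in the exact permutation test, again the smallest possible. Without *Srsf10-kd* 3 it was 0.40, and without both livers numbered 3 it was 0.32 (adjusted p = 0.158 from edgeR).

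*Spp1* is also a gene of cholangiocytes, the cells of the bile ducts, and stood in the marker list of those cells. All 7 genes of that list, *Spp1* among them, had a positive log2 fold change, beside 51.3% of all tested genes. Of the 7, 5 including *Spp1* had an unadjusted p under 0.05 in edgeR, beside 11.2% of all tested genes higher at that p. The list was chosen with earlier results of these data known, so these shares are not independent support. Their summed level was 18.2 to 23.6 CPM per kilobase in *Ctrl* and 28.3 to 41.4 in *Srsf10-kd*. *Spp1* itself was the largest part of this sum, at 17.8 CPM per kilobase as the mean of 8 livers. The sum is therefore not independent of the *Spp1* difference. *Krt19*, a keratin of bile duct cells and no macrophage marker, measured 5.17, 6.79, 8.79 and 5.30 CPM in *Ctrl* and 11.6, 9.49, 11.3 and 10.9 CPM in *Srsf10-kd*. Its groups did not overlap, a separation seen in this direction in 6.73% of all tested genes. *Krt19* was named for its small p and high level in these same data, so this separation is not independent support. Its log2 fold change came to 0.73 (SE 0.18, adjusted p = 0.116 from edgeR). The part of bile duct cells in the *Spp1* difference was not tested.

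*Cd9*, a tetraspanin of many cell types, lies on chromosome 6 from 125460266 to 125494791. It measured 15.7, 18.4, 20.6 and 16.5 CPM in *Ctrl* and 27.6, 20.1, 19.0 and 29.5 CPM in *Srsf10-kd*. It was the only one of the 35 genes with its highest value in *Srsf10-kd* 4, the liver that was lowest for 17 others. The log2 fold change of *Cd9* came to 0.43 (SE 0.16, adjusted p = 0.181 from edgeR). *Trem2*, the lipid-sensing receptor that drives the lipid-associated state, measured 0.556, 0.491, 0.796 and 0.702 CPM in *Ctrl* and 1.03, 1.11, 1.36 and 0.534 CPM in *Srsf10-kd*. These levels of *Trem2*, on chromosome 17 from 48346401 to 48354147, rest on 30 to 70 reads per liver. Of the 4 *Srsf10-kd* livers, 3 were above every control and *Srsf10-kd* 4 was below all controls but *Ctrl* 2. The log2 fold change came to 0.67 (SE 0.29, unadjusted p = 0.0442, adjusted p = 0.219 from edgeR). Without both livers numbered 3 it was 0.61 (adjusted p = 0.227 from edgeR).

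The other scarce members of this set did not share the direction of *Trem2*. *Gpnmb*, a lysosomal membrane glycoprotein, was counted 8 to 22 times per liver, and its log2 fold change came to -0.20 (SE 0.37). *Itgax*, which encodes CD11c, was counted 16 to 39 times, with -0.47 (SE 0.29). *Mmp12*, the macrophage elastase, was counted 13 to 39 times, with -0.01 (SE 0.38). At these counts the standard errors allow differences of either sign. *Cd63*, a tetraspanin of late endosomes, and *Lgals3*, which encodes galectin-3, had log2 fold changes of 0.26 (SE 0.21) and 0.22 (SE 0.18).

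Genes of monocytes and their recruitment were near the low end throughout. *Ccr2*, the receptor that brings monocytes out of the bone marrow, averaged 1.23 ± 0.287 CPM (SD, n = 4) in *Ctrl* and 1.06 ± 0.314 CPM (SD, n = 4) in *Srsf10-kd*. Its ligand *Ccl2* averaged 0.655 ± 0.240 and 0.855 ± 0.0531 CPM, with the *Srsf10-kd* livers close together inside the range of the controls. *Ly6c2*, a surface marker of inflammatory monocytes, and *Cx3cr1*, the fractalkine receptor, averaged 0.422 and 0.425 CPM in *Ctrl* and 0.503 and 0.516 CPM in *Srsf10-kd*. *Ly6c2* shares 9.46% of its stretches with *Ly6c1*. All 4 genes had an unadjusted p above 0.05 in edgeR's test, 3 with a positive and 1 with a negative log2 fold change. That of *Cx3cr1* went from 0.28 to 0.067 without both livers numbered 3.

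The MHC class II genes present antigen to CD4+ T cells, and B cells and dendritic cells use them as well as macrophages. *Cd74*, the invariant chain, measured 47.6, 53.4, 55.2 and 47.9 CPM in *Ctrl* and 69.6, 46.5, 57.4 and 55.5 CPM in *Srsf10-kd*. It was the steadiest of the 35 genes, at 1.499 times between its highest and lowest liver, and its log2 fold change came to 0.17 (SE 0.13, adjusted p = 0.4497 from edgeR). The chains *H2-Ab1* and *H2-Aa*, neighbours on chromosome 17, had log2 fold changes of 0.02 (SE 0.22) and -0.09 (SE 0.21). Both were highest in *Ctrl* 3, at 34.6 and 37.3 CPM, and lowest in *Ctrl* 4, at 17.9 and 19.96 CPM. Beside these, 7 of 8 B and plasma cell markers had a positive log2 fold change, against 51.3% of all genes. These markers too were chosen with earlier results of these data known. The list summed to 71.0 to 123.4 CPM per kilobase in *Ctrl*, with its top value in *Ctrl* 3, and to 129.4 to 141.3 in *Srsf10-kd*. Most of that sum was the antibody genes *Igkc* and *Jchain*, at 83.5 and 22.2 CPM per kilobase as means of 8 livers. The part of B and plasma cells in the MHC class II levels was not tested.

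Across genes, levels were compared per kilobase of the longest coding transcript. On that scale *Cd5l* and *Cd74* were highest, both at 38.4 CPM per kilobase as the mean of 8 livers. *C1qa*, *C1qb*, *Clec4f*, *Lyz2* and *C1qc* followed at 32.8, 32.4, 30.9, 29.0 and 27.9. Neighbours among these 7 do not differ beyond their spread between livers. The lowest were *Gpnmb* at 0.0662, *Mmp12* at 0.101, *Cx3cr1* at 0.105 and *Itgax* at 0.112 CPM per kilobase. *Clec4f*, *Cd5l* and the C1q genes thus stood far above these 4 scarce genes in these fat-fed livers. The resident and lipid-associated sets as wholes overlapped on this scale. *Spp1* and *Cd9*, at 17.8 and 17.1 CPM per kilobase, were above *Vsig4*, *Folr2*, *Marco* and *Timd4*, at 13.3, 5.43, 4.01 and 2.17.

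Differences between single livers crossed the group labels. *Srsf10-kd* 3 had the highest level in 15 of the 35 genes and *Ctrl* 3 in 9, so that 24 had their maximum in a liver numbered 3, with *Srsf10-kd* 1 next at 5. *Srsf10-kd* 4 had the lowest level in 17. Such counts over all tested genes are not given here, so nothing particular to the members is read from them. Summed over the 6 Kupffer cell genes, *Srsf10-kd* livers 1 and 3 reached 115.2 and 115.1 CPM per kilobase, beside 119.0 in *Ctrl* 3, while *Srsf10-kd* livers 2 and 4 measured 76.0 and 65.2, beside 77.9 in *Ctrl* 1. High and low Kupffer cell sums therefore occurred in both groups. Over all 35 genes the summed level was 349.9 to 496.6 CPM per kilobase in *Ctrl* and 343.0 to 556.2 in *Srsf10-kd*.

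**Figure D3:**
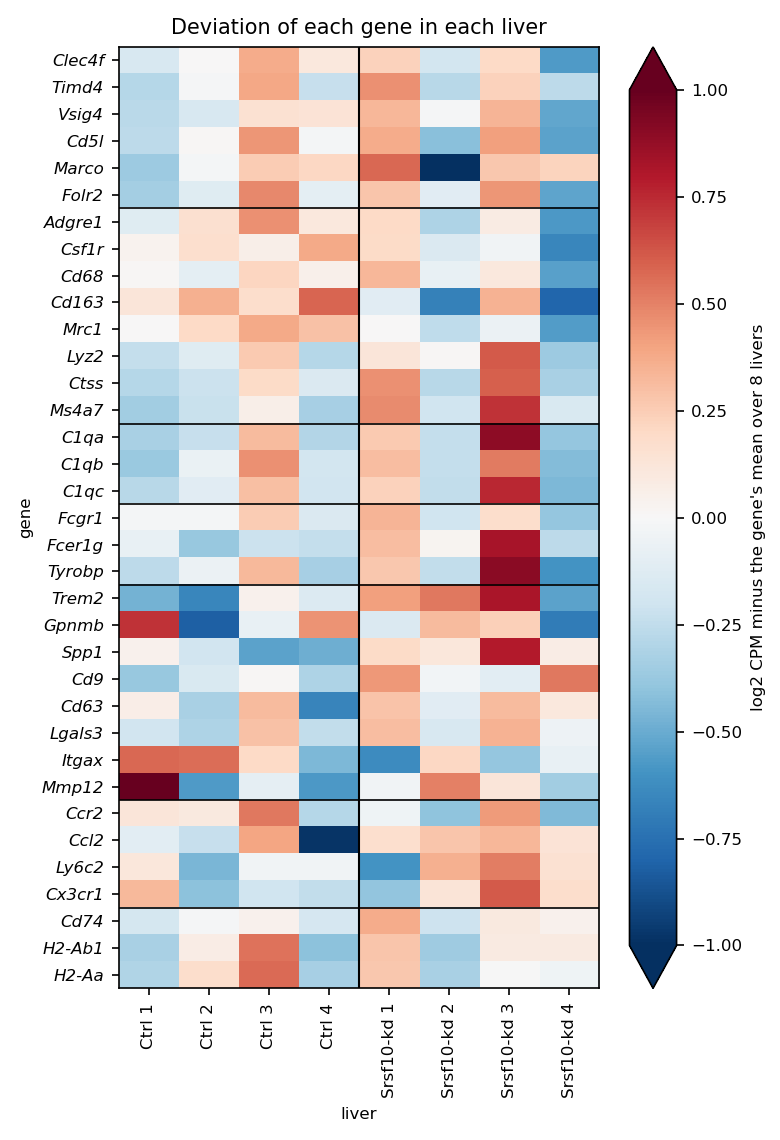
Deviation of log2 CPM from the mean of 8 livers for each macrophage gene (rows, by role) in each liver (columns), with red above and blue below and colours capped at 1. *Srsf10-kd* 3 holds the highest value of 15 genes and *Srsf10-kd* 4 the lowest of 17, and *Ctrl* 3 is highest in 9.

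The direction of the member genes followed the length of their transcripts. Of the 26 genes with transcripts under the median of all tested genes, 2841 bp, 21 had a positive log2 fold change (80.8%) with a median of 0.21, and of the 9 longer ones 8 had a negative one, with a median of -0.28. All tested genes had the same split, as 72.8% of the shorter and 29.9% of the longer had a positive value. Spearman's rho between log2 fold change and transcript length was -0.65 (Pearson's r -0.72) across the 35 genes and -0.53 (-0.44) across 15429 genes. These are descriptions across genes, which share libraries and are not independent replicates. Each library's trend of log2 counts on transcript length also differed between livers. Its slope was 0.51 to 0.68 in *Ctrl* and 0.35 to 0.52 in *Srsf10-kd*, with *Srsf10-kd* 3 lowest and *Ctrl* 3 the lowest of the controls.

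With that trend removed from every library, 13 rather than 22 of the 35 genes had a positive log2 fold change, and rho across them was -0.18. Under that correction 1 member kept an unadjusted p under 0.05 in edgeR, beside 14.9% of all genes in either direction. This was *Spp1*, with a log2 fold change of 0.39 (adjusted p = 0.315). *Fcer1g* went from 0.51 to 0.11, *Cd9* from 0.43 to 0.22, *Trem2* from 0.67 to 0.39, *Mrc1* from -0.43 to -0.23 and *Cd163* from -0.55 to -0.39. Among the 26 shorter genes 11 were then higher and 15 lower, and among the 9 longer ones 2 and 7. Whether the trend with length comes from the libraries or from the livers was not tested.

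Of the other genes of the myeloid programme, 0 passed an adjusted p of 0.05 in edgeR in each of the 5 lists read beside the members. Counts at an unadjusted p under 0.05 stand beside 11.2% of all tested genes higher and 10.6% lower at that p, and nothing particular to these lists is read from them. Of 12 myeloid transcription factors, 2 were higher and 0 lower at an unadjusted p under 0.05. *Cebpb*, which hepatocytes express as well, measured 153.5, 123.4, 89.1 and 111.6 CPM in *Ctrl* and 182.8, 166.1, 246.3 and 184.4 CPM in *Srsf10-kd* (log2 fold change 0.71, adjusted p = 0.119 from edgeR). Its groups did not overlap, a separation seen in this direction in 6.73% of all tested genes. *Irf5*, a factor of inflammatory macrophages, had a log2 fold change of 0.46. Of 19 myeloid receptors and adhesion genes, 1 was higher and 3 were lower at an unadjusted p under 0.05. The endotoxin receptor *Tlr4* and *Mertk*, which takes up dying cells, were among the lower ones, at -0.55 and -0.36. These genes were named for their small p. Among genes named for a high level per kilobase, *Cebpa* had a log2 fold change of -0.03, *Fcgr2b* 0.02 and *Clec1b* -0.02.

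Of 19 lysosomal protease and lipid handling genes, 2 were higher at an unadjusted p under 0.05 in edgeR and 0 lower, a share close to the 11.2% of all tested genes. They were *Npc2*, which moves cholesterol out of lysosomes (log2 fold change 0.35), and *Lpl*, lipoprotein lipase (0.52). *Apoe* and *Plin2*, named for the highest level per kilobase in this list, had 0.18 and -0.16. Of 14 chemokine and cytokine genes tested out of 20 listed, 2 were higher and 0 lower at that p, beside 11.2% and 10.6% of all tested genes. *Cxcl1*, a neutrophil attractant, measured 2.96 to 3.61 CPM in *Ctrl* and 4.33 to 7.32 CPM in *Srsf10-kd* (log2 fold change 0.78, adjusted p = 0.113 from edgeR), and *Il18* had 0.61. Such a separation in this direction was seen in 6.73% of all tested genes. *Cxcl1* was named for its small p in these same data, so its separation is not independent support. *Ccl9*, named for its high level per kilobase, had 0.40. Of 8 further MHC class II pathway genes, 1 was higher and 1 lower at that p, beside the same shares of all genes. *Ifi30*, a lysosomal reductase, had a log2 fold change of 0.34 (adjusted p = 0.208 from edgeR) and *Ciita*, the transcriptional activator of the class, -0.65 (adjusted p = 0.160 from edgeR), and the groups overlapped in both. *H2-Eb1*, named for its high level per kilobase, had 0.11.

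Markers of the other cell types that whole liver holds were read for the same livers. Pan-leukocyte genes summed to 45.7 to 55.7 CPM per kilobase in *Ctrl* and 43.2 to 55.9 in *Srsf10-kd*, with 0 of 10 higher and 1 lower at an unadjusted p under 0.05 in edgeR. T and NK cell genes gave 2.50 to 4.19 and 2.29 to 3.41 (0 higher, 1 lower of 10 tested), and dendritic cell genes 3.28 to 3.79 and 2.85 to 4.45 (1 and 1 of 9). Neutrophil genes were scarce, at 1.52 to 2.05 and 0.922 to 3.25, with 6 of 10 under 10 counts in every liver and 0 of 3 tested past that p. Stellate cell and fibroblast genes gave 76.7 to 98.6 and 73.2 to 136.7 (0 of 10 in either direction), and hepatocyte genes 45997 to 57246 and 53315 to 62812 (0 higher and 2 lower of 11). For endothelial cells 2 of 10 were higher and 1 lower, for B and plasma cells 3 of 8 were higher and 0 lower, and for red cells 3 of 5 were higher and 0 lower. All these counts stand beside 11.2% of all tested genes higher and 10.6% lower at that p. Defining markers of Kupffer cells, *Clec4f* and *Timd4*, were therefore present in all 8 livers, at 2844 to 5033 and 198 to 364 counts.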

How the data were processed

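Liver RNA from 4 *Srsf10-kd* and 4 *Ctrl* mice was sequenced from both ends after poly(A) selection. The authors aligned reads to GRCm38 with STAR 2.7.7a and deposited the counts of STAR for each gene, whole numbers with no scaling. The strand column and annotation release are not given in the sources used here, so genes overlapping on either strand are uncertain. The 28 pairs of libraries differed by more than sampling noise (chi-square over degrees of freedom at least 51.0).

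In R 4.3.3, edgeR 4.0.16 tested the counts (TMM, filterByExpr, quasi-likelihood, condition alone, two-sided, Benjamini-Hochberg over 15491 genes). Exact permutation tests used 70 assignments. Log2 CPM used a prior count of 2. Genes named outside the members were those with the smallest p or highest level per list, and list sums are CPM per kilobase of the longest coding transcript. Alternatives were DESeq2 1.42.0 (the tool of the study), limma 3.58.1 voom with sample quality weights, other scalings, no filter, the replicate number as a block, livers left out, and each library's lowess trend on transcript length (span 0.5) removed. Scripts were tested on simulated data. The members and lists were chosen with earlier results of these data known. Splicing and polyadenylation were not analysed here.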

Additional observations from a re-analysis of the deposited data

Results flagged for a closer look

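In 70 groups of 4 livers, 1 per gene and label, the most extreme liver was compared with the rest by Dixon's criterion, which chance alone exceeds in about 5% of groups. It was exceeded in 3, each at the upper end and each in a liver numbered 3. In *Ctrl* 3, *C1qa* was at 40.6 CPM, where the remaining controls lay between 26.0 and 27.8 CPM. *Spp1* measured 44.74 CPM in *Srsf10-kd* 3, against 27.1 to 29.5 CPM in the other livers of that label. *Lgals3* was at 7.499 CPM in *Ctrl* 3, where the remaining controls lay between 4.94 and 5.36 CPM.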

How the results depend on the processing

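At an adjusted p of 0.05, edgeR called 11 genes, DESeq2 819, limma-voom 1814, edgeR without a filter 46 and edgeR without both livers numbered 3 1342. With single livers left out the count ran from 0 to 544, the top without *Ctrl* 3, and 0 came without *Ctrl* 2 or *Srsf10-kd* 1, 2 or 4, where 2154 to 3656 genes had an unadjusted p under 0.05. Of the 35 macrophage genes 0 passed except 2 with limma-voom and 2 without both livers numbered 3, *Cd163* and *Cd9* each time. The number with an unadjusted p under 0.05, 6 as designed, was 1 with the length trend removed and 3 to 6 with single livers left out (3 without *Ctrl* 2, *Ctrl* 4 or *Srsf10-kd* 1). They were not always the same genes. They included *Ccl2* and *Lgals3* without *Ctrl* 3, *Itgax* without *Ctrl* 4 and *Csf1r* without *Srsf10-kd* 1. The 22 with a positive log2 fold change became 13 with the length trend removed. Same-numbered livers deviated together weakly (correlations -0.18, 0.21, 0.27 and 0.22), so the numbers were not taken to pair them. With the replicate block edgeR called 59 genes and 0 of the 35, and log2 fold changes changed sign for *Marco* (-0.023) and *Mmp12* (0.070). Of 35 genes, 18 kept their sign under all alternatives, and 44 of 560 values were reversed. Limma-voom gave -0.0053 for *Tyrobp* and 0.040 for *H2-Aa*, and leaving out both livers numbered 3 gave 0.012 for *Fcgr1* and 0.12 for *H2-Aa*. Length correction gave -0.10 for *Vsig4*, -0.043 for *Marco*, -0.19 for *Folr2*, -0.015 for *Lyz2*, -0.17 for *C1qb*, -0.062 for *C1qc*, -0.16 for *Tyrobp*, 0.068 for *Mmp12*, -0.089 for *Ly6c2*, -0.030 for *Cd74* and -0.20 for *H2-Ab1*. With single livers left out, log2 fold changes crossed 0 in *Timd4* (-0.071 to 0.24), *Vsig4* (-0.0010 to 0.25), *Cd5l* (-0.20 to 0.11), *Marco* (-0.12 to 0.32), *Folr2* (-0.10 to 0.25), *Cd68* (-0.19 to 0.082), *C1qb* (-0.079 to 0.29), *C1qc* (-0.069 to 0.36), *Fcgr1* (-0.14 to 0.10), *Tyrobp* (-0.085 to 0.44), *Gpnmb* (-0.43 to 0.038), *Mmp12* (-0.18 to 0.49), *H2-Ab1* (-0.10 to 0.25) and *H2-Aa* (-0.20 to 0.12). The cause was not tested. The 8 genes below 1 CPM are limited by their counts.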
